A study of Mus musculus with 9 samples.

Results

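A set of 10 genes of the GM-CSF, M-CSF and TGF-beta pathways were followed in alveolar macrophages that lack Vhl. They are the GM-CSF receptor chains Csf2ra, Csf2rb and Csf2rb2, the M-CSF receptor Csf1r, the ligand Tgfb1 with its receptors Tgfbr1 and Tgfbr2, the transcription factors Stat5a and Stat5b, and the nuclear receptor Pparg. The genes were picked by name for their place in these pathways, with earlier results of these data known. All 10 of the 10 listed were found by symbol among the 12003 genes of the table. Poly(A) RNA was sequenced from cells washed out of the airways of untreated C57BL/6-background mice aged 8 to 12 weeks, after enrichment on beads against CD11c. Each of the 9 libraries is a pool of 5 to 7 mice matched for age and sex.

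The groups were 3 Vhl knockout pools with the genotype Vhl(flox/flox) / CD11c (cre/+), 3 Cre control pools with the genotype Vhl(+/+) / CD11c (cre/+), and 3 floxed control pools with the genotype Vhl(flox/flox) / CD11c (+/+). Knockout and Cre control mice share the CD11c-driven Cre, and knockout and floxed control mice share the floxed Vhl alleles. The CD11c promoter is active in dendritic cells as well as in alveolar macrophages, so deletion is not restricted to 1 cell type. VHL recognises hypoxia-inducible factors (HIF) by their alpha chains and directs them to degradation.

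GM-CSF (encoded by Csf2) binds a receptor made of the alpha chain CSF2RA and the beta chain CSF2RB, which activates the kinase JAK2 and then STAT5. In the lung this signal induces PPARG, a fatty-acid sensing nuclear receptor that alveolar macrophages need to form and to clear surfactant lipid. TGF-beta made by the macrophages themselves acts through TGFBR2 and TGFBR1 on SMAD proteins and is also needed for these cells to develop and persist. M-CSF (encoded by Csf1) and IL-34 act through the receptor tyrosine kinase CSF1R, the main growth factor receptor of most other tissue macrophages.

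The table held 18201116 to 25861174 reads per library. Values are normalized reads, which are reads per gene scaled to library size without correction for gene length, and 1 read equals 0.0400 to 0.0565 normalized reads. Vhl was at 2.02, 2.14 and 2.52 normalized reads in the knockout libraries, against 24.0, 21.9 and 25.3 in the Cre control libraries and 21, 14.9 and 18.4 in the floxed control libraries, so Vhl separated the knockout libraries from the controls; it does not check which controls are Cre and which floxed (adjusted p = 0.573 between them). All 14 alveolar macrophage markers looked for were measured (4 rose and 3 fell), and their summed level was 36684 to 49819 in knockout libraries, 26169 to 30554 in Cre controls and 27643 to 31296 in floxed controls. Most of that sum was Chil3, singled out after its values were seen, at 25431 to 38057 in knockouts and 15661 to 20336 in controls. The sum without Chil3 was not computed. Marco, Chil3, Fabp1 and Krt19 rose, and Siglecf, Car4 and Krt79 fell. None of the listed endothelial, fibroblast or eosinophil, basophil and mast cell markers was among the measured genes. The first library of each genotype had the highest Csf1 value of its group, and results were also computed without those 3 libraries.

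Differences are log2 fold changes of (normalized reads + 1) from limma, a linear model fitted to all genes, and a gene was called at a Benjamini-Hochberg adjusted p under 0.05. Against both controls together, Tgfbr1 and Csf1r fell and Pparg, Csf2rb and Stat5b rose, which is 5 of 10 members called where 39.8% of all genes were called. In these 5 genes no knockout library overlapped any control library, as in 37.7% of all genes. The median absolute difference of the members was 0.14 on the log2 scale, and that of all genes was 0.20. The 10 members were thus called about as often as other genes, and the results below concern single genes. Tgfbr1, Csf1r and Pparg differed from each control group in every alternative analysis tried. Csf2rb and Stat5b lost their calls in some of them, and without the second knockout library 3 members were called.

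**Figure D1:**
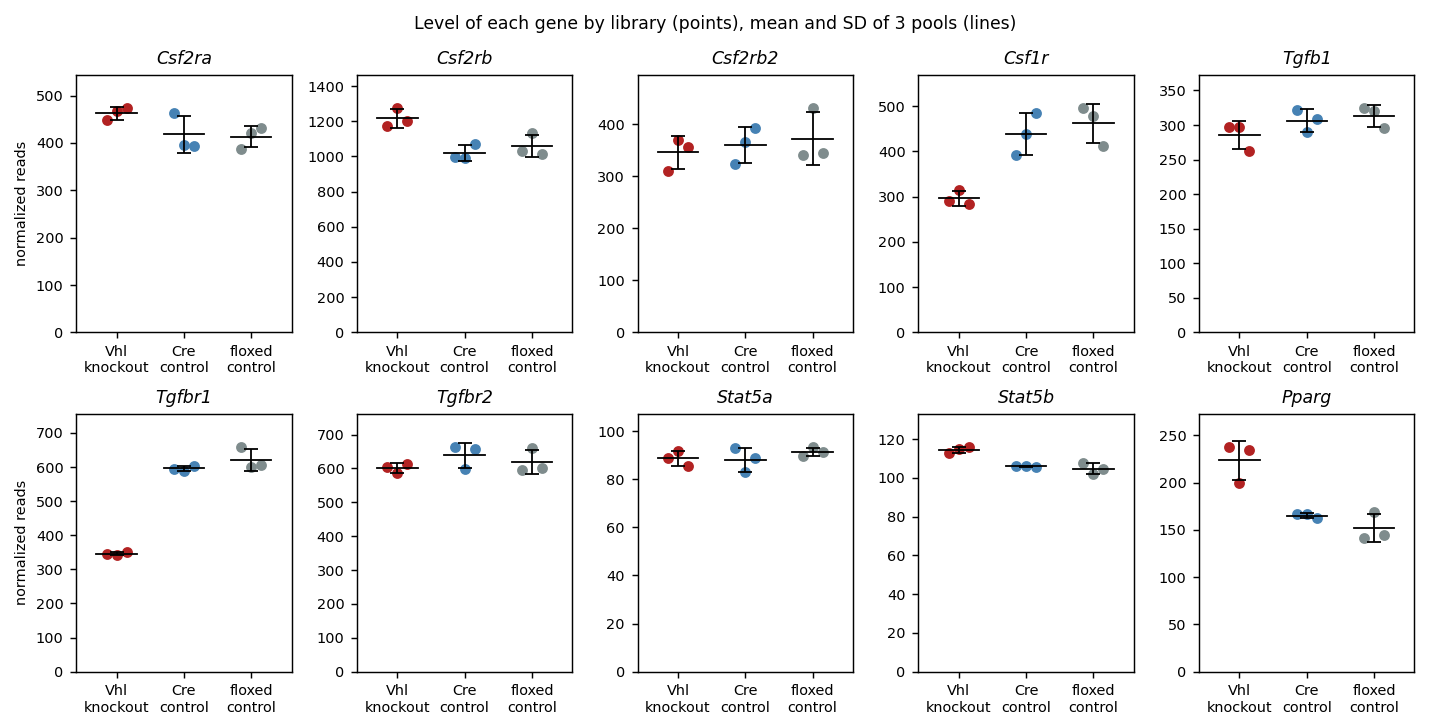
Normalized reads of the 10 genes in each library (points; y axes start at 0), with the mean and SD of the 3 pools of each genotype (lines). Knockout points lie below all control points for Csf1r and Tgfbr1, above them for Csf2rb, Stat5b and Pparg, and overlap them for the other genes.

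Csf2ra encodes the ligand-binding alpha chain of the GM-CSF receptor (ENSMUSG00000059326, chr19:61223957-61228429, GRCm38). It had 447, 468 and 473 normalized reads in knockout libraries, 463, 396 and 394 in Cre controls, and 388, 422 and 431 in floxed controls. The first Cre control reached the level of the knockouts, so the groups overlapped. Csf2ra averaged 463 ± 13.7 normalized reads in knockouts and 416 ± 28.8 in controls (SD, n = 3 and n = 6), and its log2 fold change of 0.16 (SE 0.0658) was not called by limma (adjusted p = 0.0831). Without the first Cre control it was called (0.20, adjusted p = 0.0201), and likewise without the first library of each genotype (0.20, adjusted p = 0.0398).

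Csf2rb and Csf2rb2 encode the beta chains. CSF2RB is shared by the receptors for GM-CSF, IL-3 and IL-5, and CSF2RB2 is a rodent chain that serves IL-3. The genes lie side by side on chromosome 15 on opposite strands, Csf2rb at chr15:78325752-78353847 on the plus strand (ENSMUSG00000071713) and Csf2rb2 at chr15:78282507-78305721 on the minus strand (ENSMUSG00000071714; GRCm38, GENCODE M21). Their coding sequences are identical at 95.2% of 2628 aligned bases. The first 120 coding bases of each are shown because they let a reader see how little separates the reads of the pair; the 4 differing bases are in capitals (GENCODE M21 transcripts, GRCm38).
Csf2rb: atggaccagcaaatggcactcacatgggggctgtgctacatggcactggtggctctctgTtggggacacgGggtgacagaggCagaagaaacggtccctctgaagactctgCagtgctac
Csf2rb2: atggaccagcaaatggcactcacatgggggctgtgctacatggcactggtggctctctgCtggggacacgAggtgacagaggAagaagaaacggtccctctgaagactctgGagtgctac

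Of all distinct stretches of 61 bases (the length of a read) in the protein-coding transcripts of Csf2rb, 13.3% also occur in Csf2rb2. Reads from them cannot be assigned to either gene with certainty. Here and below, the stretches of a member come from its protein-coding transcripts only. Csf2rb had 1174, 1274 and 1200 normalized reads in knockout libraries, 996, 992 and 1073 in Cre controls, and 1032, 1131 and 1014 in floxed controls. All 3 knockout libraries were above all 6 controls. It averaged 1216 ± 52.0 in knockouts and 1040 ± 53.4 in controls (SD, n = 3 and n = 6), a log2 fold change of 0.23 (SE 0.0630, adjusted p = 0.0166). The difference was 0.25 against Cre controls (adjusted p = 0.0230) and 0.20 against floxed controls, which limma did not call (adjusted p = 0.0574). Against Cre controls the call was lost in 6 of 20 alternatives. Without the second knockout library the call against both controls was lost (0.19, adjusted p = 0.0863), as it was without the first library of each genotype (adjusted p = 0.0731).

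Csf2rb2 had 311, 370 and 356 normalized reads in knockout libraries, 324, 366 and 392 in Cre controls, and 341, 431 and 344 in floxed controls. The ranges of the 3 genotypes overlapped. Its log2 fold change was -0.08 (95% interval -0.29 to 0.13, adjusted p = 0.546). With the reads of both genes added up, the pair averaged 1562 ± 80.1 in knockouts and 1406 ± 90.3 in controls, and the difference of 0.15 on the log2 scale was not called (adjusted p = 0.123). The ratio of Csf2rb to Csf2rb2 reads was 3.37 to 3.78 in knockout libraries and 2.63 to 3.08 in control libraries, with no overlap.

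Stat5a and Stat5b encode the paired transcription factors that carry the GM-CSF signal to the nucleus. They are neighbours on chromosome 11, Stat5a at chr11:100859351-100885169 (plus strand, ENSMUSG00000004043) and Stat5b at chr11:100780731-100850724 (minus strand, ENSMUSG00000020919). Their coding sequences are identical at 90.9% of 2341 aligned bases, and 12.3% of the 61-base stretches of Stat5a occur in another gene, almost all in Stat5b. Stat5a also overlaps exons of Stat3 on the other strand, and whether reads were counted by strand is unknown here. The first 120 coding bases are shown for comparison with the beta chains above; the 24 differing bases are in capitals (GENCODE M21, GRCm38).
Stat5a: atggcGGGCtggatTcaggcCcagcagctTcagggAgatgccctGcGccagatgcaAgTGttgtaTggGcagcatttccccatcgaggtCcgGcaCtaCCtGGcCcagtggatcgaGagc
Stat5b: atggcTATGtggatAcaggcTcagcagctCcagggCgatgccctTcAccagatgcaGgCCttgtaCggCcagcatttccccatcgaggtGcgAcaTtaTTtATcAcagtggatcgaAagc

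Stat5a had 88.9, 91.6 and 85.4 normalized reads in knockout libraries, 92.8, 82.9 and 88.7 in Cre controls, and 89.9, 93.2 and 91.3 in floxed controls. The groups overlapped fully, and the log2 fold change was -0.02 (95% interval -0.13 to 0.09, adjusted p = 0.806). Stat5b had 113, 115 and 116 normalized reads in knockout libraries, 106, 106 and 105 in Cre controls, and 108, 102 and 105 in floxed controls. The knockout libraries were all above the controls, by a small margin: the means were 114 ± 1.60 and 105 ± 1.97 (SD, n = 3 and n = 6). The log2 fold change of 0.12 (SE 0.0414) just passed the threshold of limma (adjusted p = 0.0463). It did not pass against floxed controls (adjusted p = 0.0700) or Cre controls (adjusted p = 0.105) alone, and the call against both was lost when any 1 library other than the first floxed control was left out (adjusted p up to 0.140). The sum of Stat5a and Stat5b was 203 ± 2.93 in knockouts and 195 ± 3.55 in controls and was not called (0.06, adjusted p = 0.307). Stat3, whose exons overlap Stat5a, averaged 235 ± 3.69 in knockouts and 265 ± 5.79 in controls.

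Pparg encodes the nuclear receptor that GM-CSF induces in alveolar macrophages (ENSMUSG00000000440, chr6:115360951-115490399, plus strand). It had 237, 199 and 234 normalized reads in knockout libraries, 167, 167 and 162 in Cre controls, and 142, 169 and 145 in floxed controls. The lowest knockout library was above the highest control. Pparg averaged 223 ± 21 in knockouts and 158 ± 12.0 in controls (SD, n = 3 and n = 6), a log2 fold change of 0.49 (SE 0.0734, 95% interval 0.33 to 0.66, adjusted p = 5.10e-04). The difference was 0.43 against Cre controls (adjusted p = 0.00349) and 0.56 against floxed controls (adjusted p = 7.65e-04). Pparg lies 1.8 Mb from Vhl on chromosome 6. Between Cre controls, which lack the floxed alleles, and floxed controls, which carry them, Pparg was not called by limma (0.13, 95% interval -0.06 to 0.31, adjusted p = 0.675). A part of the nearby Vhl alleles in the Pparg result was not tested.

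Csf1r encodes the M-CSF receptor (ENSMUSG00000024621, chr18:61100598-61132149, plus strand). It had 290, 315 and 285 normalized reads in knockout libraries, 391, 439 and 485 in Cre controls, and 496, 478 and 413 in floxed controls. Every knockout library was below every control. Csf1r averaged 297 ± 16.4 in knockouts and 450 ± 42.6 in controls (SD, n = 3 and n = 6), a log2 fold change of -0.60 (SE 0.0819, 95% interval -0.78 to -0.41, adjusted p = 3.05e-04). It fell against Cre controls (-0.56, adjusted p = 0.00146) and against floxed controls (-0.64, adjusted p = 6.53e-04). Exons of Hmgxb3 overlap those of Csf1r on the other strand, and 16.2% of the 61-base stretches of Csf1r occur in it. Hmgxb3 itself was at 30.2 ± 1.42 in knockouts and 29.6 ± 1.86 in controls.

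Dendritic cells, monocytes and interstitial macrophages, which also carry Csf1r, can be present in cells enriched on CD11c. Of 13 dendritic cell markers, 11 fell and 0 rose (9 to 11 fell with single libraries left out). Their summed level was 625 to 782 in knockouts, 686 to 1007 in Cre controls and 726 to 743 in floxed controls. Most of that sum was Ly75. As for Mertk and Ace in the next lists, it was singled out after its values were seen. Without Ly75 the sum of the other 12 was 54.4 to 63.5 in knockouts, 146 to 326 in Cre controls and 127 to 255 in floxed controls. Of 6 measured interstitial macrophage markers 4 fell and 1 rose, and their sum was 254 to 270 in knockouts, 389 to 409 in Cre controls and 378 to 442 in floxed controls. Mertk made up most of this sum, and the other 5 summed to 14.2 to 22.7 in knockouts, 17.9 to 28 in Cre controls and 26.9 to 54.0 in floxed controls, so knockouts and Cre controls overlapped. The complement genes C1qa, C1qb and C1qc were not called against Cre controls alone (adjusted p = 0.342, 0.531 and 0.171). The count of interstitial macrophage markers that fell was 1 without the third knockout library and 2 without the second knockout library, the first floxed control or the third floxed control, and 0 rose without the second knockout library. Of 8 monocyte markers, 3 rose and 2 fell, and Ly6c2 was at 0 in at least 1 library. In 13 of 18 alternatives, among them 7 of the 9 that left out a single library, 1 monocyte marker fell. The summed level was 241 to 245 in knockouts, 162 to 201 in Cre controls and 179 to 210 in floxed controls, and most of it was Ace in the knockouts. Without Ace the order turned round, with 65.3 to 84.6 in knockouts, 97.3 to 127 in Cre controls and 112 to 142 in floxed controls. That turn rested largely on Treml4, another monocyte marker singled out after its values were seen, which averaged 18.0 in knockouts and 73.4 in controls. The sum without both Ace and Treml4 was not computed. Lung epithelial markers summed to 55.0 to 81.9 in knockouts, 151 to 231 in Cre controls and 89.4 to 249 in floxed controls (0 of 6 measured rose and 2 fell, or 1 without the second knockout library). Of 8 T and NK cell markers only 3 were measured, and Klrb1c among them was at 0 in at least 1 library. These summed to 165 to 184 in knockouts, 212 to 252 in Cre controls and 183 to 201 in floxed controls. Cd3e, Cd3d, Cd3g, Trac and Nkg7 were not among the measured genes. Neutrophil markers, at 138 to 404 in knockouts, 94.3 to 325 in Cre controls and 200 to 666 in floxed controls, overlapped. The 1 measured B cell marker, Igkc, was at 9.44 to 18.6 in knockouts, 0.0523 to 0.396 in Cre controls and 4.25 to 64.3 in floxed controls. In such bulk samples fewer cells of a type and less RNA per cell cannot be told apart, and the part of these markers in the Csf1r result, or in any other, was not tested.

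Tgfb1 encodes the TGF-beta isoform of most immune cells (ENSMUSG00000002603, chr7:25687002-25705077). It had 297, 298 and 262 normalized reads in knockout libraries, 322, 289 and 308 in Cre controls, and 324, 321 and 295 in floxed controls. The groups overlapped. The log2 fold change was -0.12 (SE 0.0620, 95% interval -0.26 to 0.02) and was not called (adjusted p = 0.159). It was called when libraries were scaled by their total reads alone (-0.17, adjusted p = 0.0489).

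Tgfbr1 encodes the type I receptor, the kinase that phosphorylates SMAD2 and SMAD3 (ENSMUSG00000007613, chr4:47353222-47414931, plus strand). It had 346, 342 and 351 normalized reads in knockout libraries, 595, 589 and 604 in Cre controls, and 657, 599 and 607 in floxed controls. A wide gap separated the knockout libraries from all controls, and the knockout pools were close to each other. Tgfbr1 averaged 347 ± 4.40 in knockouts and 608 ± 24.8 in controls (SD, n = 3 and n = 6), a log2 fold change of -0.81 (SE 0.0490, 95% interval -0.92 to -0.70, adjusted p = 1.05e-06). This is 0.571 of the control level on the fitted scale. The difference was -0.78 against Cre controls (adjusted p = 5.36e-06) and -0.84 against floxed controls (adjusted p = 3.16e-06). Among the 10 genes this was the largest difference, and no 61-base stretch of Tgfbr1 occurs in another gene.

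Tgfbr2 encodes the type II receptor, which binds TGF-beta first and then recruits and activates TGFBR1 (ENSMUSG00000032440, chr9:116084293-116175360). It had 605, 586 and 614 normalized reads in knockout libraries, 662, 597 and 656 in Cre controls, and 596, 661 and 603 in floxed controls. The groups overlapped, and the log2 fold change was -0.06 (SE 0.0585, 95% interval -0.19 to 0.07, adjusted p = 0.425). The interval of Tgfbr2 lies well outside that of its partner chain. Within each library, the ratio of Tgfbr1 to Tgfbr2 reads was 0.572 to 0.585 in knockouts and 0.899 to 1.10 in controls, with means of 0.576 ± 0.00703 and 0.970 ± 0.0789.

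The promoters of Tgfbr1 and Pparg, the genes with the largest fall and the most certain rise among the members, are shown as the windows from 250 bases before to 50 bases after the first annotated start (RefSeq, GRCm38.p6, plus strand). They lie at chr4:47352972-47353271 and chr6:115360894-115361193. Each was searched on both strands for ACGTG and GCGTG, the core letters of HIF binding sites, and for TTCNNNGAA, the STAT5 motif. Capitals mark GCGTG, written CACGC where it lies on the other strand.
Tgfbr1 promoter: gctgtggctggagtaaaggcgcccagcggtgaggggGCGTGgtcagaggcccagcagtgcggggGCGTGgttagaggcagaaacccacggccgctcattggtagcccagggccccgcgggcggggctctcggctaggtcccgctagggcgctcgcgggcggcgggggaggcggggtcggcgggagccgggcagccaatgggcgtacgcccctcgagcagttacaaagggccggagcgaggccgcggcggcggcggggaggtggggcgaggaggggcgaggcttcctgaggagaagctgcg
Pparg promoter: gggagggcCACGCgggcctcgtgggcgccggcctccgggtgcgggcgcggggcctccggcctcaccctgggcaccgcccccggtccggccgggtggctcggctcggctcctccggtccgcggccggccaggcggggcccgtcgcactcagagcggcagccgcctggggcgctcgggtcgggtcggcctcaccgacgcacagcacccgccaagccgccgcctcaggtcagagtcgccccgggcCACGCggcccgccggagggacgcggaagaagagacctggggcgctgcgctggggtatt

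Each of these first windows holds 2 matches to GCGTG, 0 to ACGTG and 0 to TTCNNNGAA, and 1 of these genes fell while the other rose. The windows at the second start of Tgfbr1 and the later starts of Pparg hold 0 matches to any of the 3 motifs. Of all 32851 promoter windows of that length, 43.8% hold ACGTG or GCGTG and 8.30% hold TTCNNNGAA. A match describes the letters and does not show a bound site. RefSeq windows were matched for 8 of the 10 members. Among them Tgfbr2 and Tgfb1, which were not called, hold 1 GCGTG each, Stat5b holds 1 GCGTG at its second start, Csf2ra holds 1 ACGTG, and Csf2rb2 holds 1 TTCNNNGAA.

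**Figure D2:**
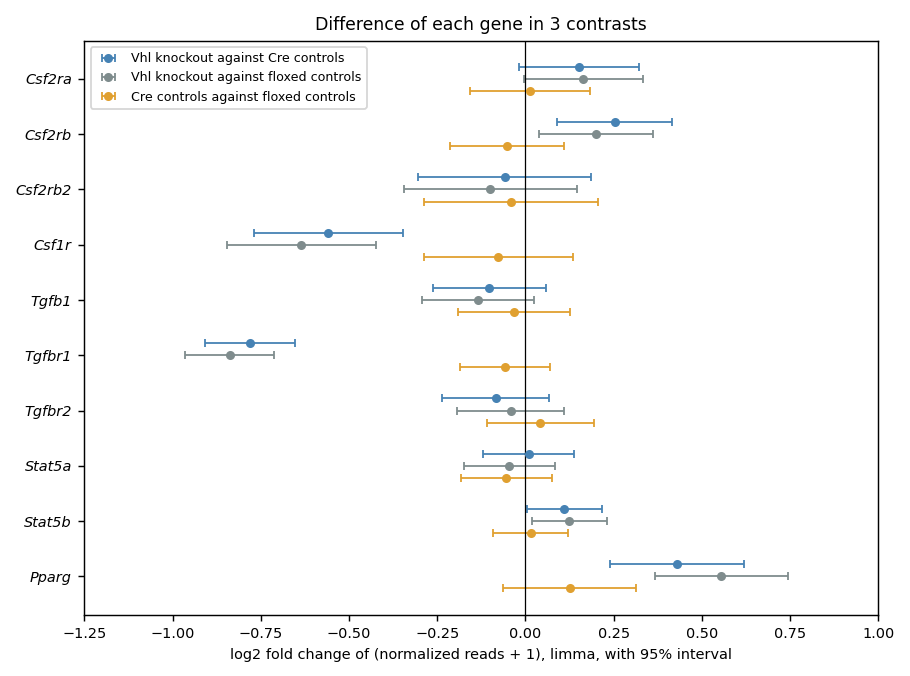
Log2 fold change of (normalized reads + 1) for each gene with its 95% interval from limma, for Vhl knockout against Cre controls, Vhl knockout against floxed controls, and Cre controls against floxed controls. The first 2 contrasts share the knockout libraries, and intervals for Tgfbr1, Csf1r, Pparg, Csf2rb and Stat5b leave out 0 in both (after adjustment Stat5b was called in neither and Csf2rb only against Cre controls), while all intervals between the controls include 0.

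Against floxed controls alone, 3 of the 10 genes were called, where 34.3% of all genes were. Against Cre controls alone, 4 were called, where 34.0% of all genes were. These comparisons share the knockout libraries, so they are not independent. Cre controls against floxed controls gave 0 of 10 called by limma, where 0.167% of all genes were called, and 0 at an unadjusted p under 0.05; edgeR and DESeq2 also called 0. The log2 differences between the controls ran from -0.08 (Csf1r) to 0.13 (Pparg).

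Levels of different genes were compared per kilobase of exon, with all annotated exons of a gene merged, also those of non-coding transcripts. For Tgfb1 this length is 5042 bases, while its protein-coding transcripts hold 2115 distinct stretches of 61 bases. For Tgfbr1 these values are 6534 and 6408, and for Csf1r 5774 and 5016. They are 7133 and 4160 for Stat5a, 5539 and 5477 for Stat5b, 2871 and 1797 for Csf2ra, and 7277 and 5208 for Csf2rb. The order of the genes thus depends on the length used. In knockout libraries the order was Csf2rb (167 normalized reads per kb), Csf2ra (161), Pparg (75.7), Tgfbr2 (73.4), Csf2rb2 (73.0), Tgfb1 (56.7), Tgfbr1 (53.0), Csf1r (51.4), Stat5b (20.6) and Stat5a (12.4). In controls it was Csf2ra (145), Csf2rb (143), Tgfbr1 (93.1), Csf1r (78.0), Csf2rb2 (77.2), Tgfbr2 (76.8), Tgfb1 (61.5), Pparg (53.7), Stat5b (19.0) and Stat5a (12.6). Neighbours that did not differ beyond their SD were Csf2rb and Csf2ra in both groups, Pparg, Tgfbr2 and Csf2rb2 in knockouts, Tgfb1 and Tgfbr1 in knockouts, Tgfbr1 and Csf1r in knockouts, and Csf1r, Csf2rb2 and Tgfbr2 in controls. By this length, Pparg stood level with Tgfbr2 in knockouts and below it in controls. Tgfbr1 and Csf1r stood at or below the level of Tgfb1 in knockouts and above it in controls. A shorter length for Tgfb1 could turn that order. The order of Stat5b over Stat5a could turn likewise with a shorter length for Stat5a.

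**Figure D3:**
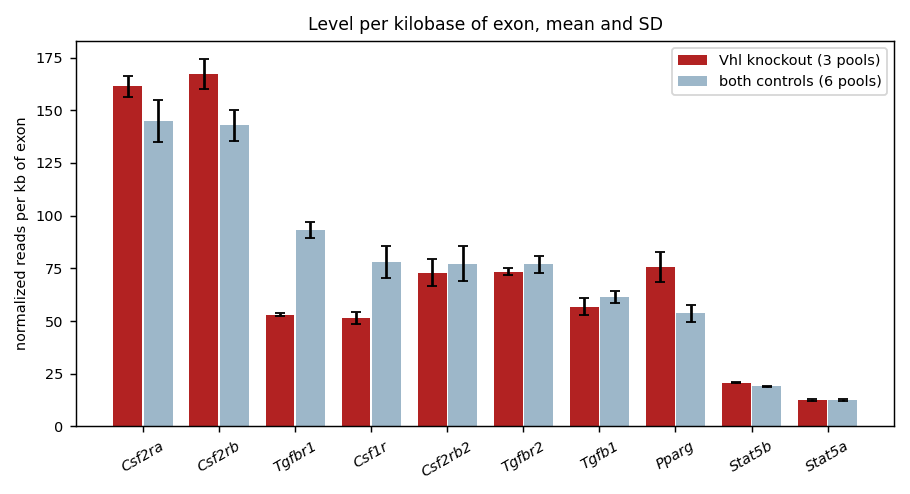
Normalized reads per kilobase of exon, with all annotated exons of a gene merged (linear y axis from 0), for the 10 genes, with bars for the mean and error lines for the SD of 3 knockout pools (left bar of each pair) and 6 control pools (right bar). Both chains of the GM-CSF receptor stand highest in both groups, and Tgfbr1 shows the widest gap between bars (53.0 in knockouts, 93.1 in controls).

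Ratios within a library do not depend on how libraries were scaled. Csf1r over Csf2ra, the 2 growth factor receptors set against each other, was 0.602 to 0.673 in knockout libraries and 0.845 to 1.28 in control libraries. The ranges did not overlap. Pparg over Csf2ra was 0.426 to 0.530 in knockout libraries and 0.336 to 0.421 in control libraries, again apart but by a small gap. Csf2rb over Csf2ra, the beta over the alpha chain, was 2.53 to 2.72 in knockouts and 2.15 to 2.72 in controls, so the balance of these chains overlapped between groups. Stat5b over Stat5a was 1.25 to 1.35 in knockouts and 1.09 to 1.28 in controls, also overlapping. These ratios of reads are not corrected for gene length, so they compare libraries and not the levels of the genes.

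**Figure D4:**
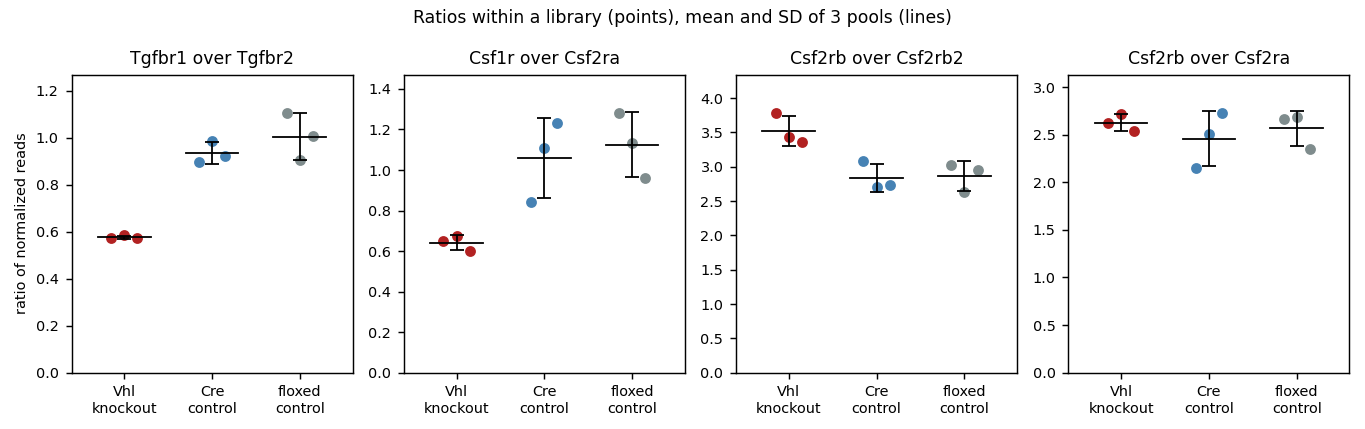
Ratios of normalized reads of gene pairs within each library (points; y axes start at 0), with the mean and SD of the 3 pools of each genotype (lines). Knockout points lie apart from both control groups for Tgfbr1 over Tgfbr2, Csf1r over Csf2ra and Csf2rb over Csf2rb2, and among them for Csf2rb over Csf2ra.

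Around the members, 10 lists of genes of the same pathways, also chosen with earlier results of these data known, were counted against both controls. In all genes the median log2 difference was -0.0022, 19.7% rose and 20.2% fell. In the list of GM-CSF related receptor chains and proximal signalling, 5 of 15 measured genes rose and 6 fell (median -0.09). Means of list genes are given with their SD (n = 3 knockout and n = 6 control pools). Il3ra, the IL-3 receptor alpha chain that pairs with the beta chains, rose to 24.8 ± 0.403 normalized reads in knockouts, against 10.4 ± 1.19 in controls (log2 1.19, adjusted p = 8.33e-06). Pik3r1, a regulatory subunit of PI3 kinase, rose to 143 ± 16.2 in knockouts, against 92.0 ± 4.92 in controls. Sh2b3, an adaptor that restrains JAK2, fell to 41.2 ± 3.11 in knockouts, against 72.1 ± 7.07 in controls. Jak2 itself, named after its values were seen, also fell by limma (log2 -0.53, adjusted p = 0.00374). Not called were Ywhaz, a 14-3-3 adaptor (546 ± 20.9 in knockouts and 499 ± 30.2 in controls), and the kinase Jak1 (266 ± 7.62 in knockouts and 280 ± 16.2 in controls). The ligand Csf2 and also Il3, Il5 and Il5ra were not among the measured genes.

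Of 14 STAT5 target and feedback genes, 6 rose and 0 fell (median 0.18); 2 fell without the first knockout library and 1 without the second floxed control. Cish, a feedback inhibitor that STAT5 induces, rose to 69.6 ± 9.82 in knockouts, against 35.6 ± 6.57 in controls (log2 0.96, adjusted p = 4.23e-05). Mcl1, a survival factor, rose to 888 ± 77.8 in knockouts, against 654 ± 34.5 in controls, and Pim1, a serine kinase, to 203 ± 13.2 in knockouts, against 161 ± 26.2 in controls. Myc, a growth regulator with many other inputs, rose to 65.7 ± 16.2 in knockouts, against 37.3 ± 7.25 in controls. The cell-cycle gene Ccnd3 (118 ± 9.60 in knockouts and 109 ± 8.67 in controls) and the survival gene Bcl2l1 (53.6 ± 2.57 in knockouts and 50.8 ± 3.74 in controls) were not called.

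Of 11 measured genes in the list of PPARG partners, cofactors and related nuclear receptors, 4 rose and 0 fell (median 0.08). Nr1h3 and Ppard are related receptors and not partners or cofactors. Nr1h3, which encodes the oxysterol receptor LXR alpha, rose to 102 ± 7.18 in knockouts, against 54.6 ± 5.30 in controls (log2 0.89, adjusted p = 3.00e-05). The paralog Ppard rose to 68.6 ± 3.11 in knockouts, against 56.4 ± 1.64 in controls, and the coactivator Ncoa1 to 131 ± 12.9 in knockouts, against 106 ± 5.39 in controls. Rxrb, a dimer partner, rose to 64.6 ± 4.98 in knockouts, against 57.4 ± 2.21 in controls (log2 0.16, adjusted p = 0.0441), and lost this call in 9 of 18 alternatives. The dimer partner Rxra (423 ± 15.3 in knockouts and 390 ± 25.9 in controls) was not called.

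Of 13 measured PPARG target genes, 6 rose and 1 fell (median 0.30). Pdk4, a kinase that holds back glucose oxidation, rose to 51.5 ± 10.3 in knockouts, against 16.2 ± 2.79 in controls (log2 1.61, adjusted p = 9.58e-06). Fabp4, a fatty acid carrier, rose to 199 ± 20.3 in knockouts, against 89.5 ± 20.3 in controls (log2 1.17, adjusted p = 7.29e-06). Abcg1, a cholesterol exporter, rose to 2631 ± 120 in knockouts, against 1849 ± 242 in controls, and Plin2, a lipid droplet coat gene, to 1342 ± 27.5 in knockouts, against 1094 ± 96.2 in controls. The lipase gene Lpl (3248 ± 545 in knockouts and 3683 ± 496 in controls) and the mitochondrial carrier gene Ucp2 (2039 ± 32.4 in knockouts and 2204 ± 210 in controls) were not called. Plin2 and Pdk4 are also known targets of other PPAR proteins. The gene that fell, Fabp5 (log2 -0.57), another fatty acid carrier named after its values were seen, was not called without the second knockout library.

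Of 12 measured M-CSF receptor ligand and signalling genes, 2 rose and 2 fell (median -0.14). Without the first knockout library 0 rose, and 4 fell without the first Cre control or the third floxed control. Fyn, a Src-family kinase, fell to 30.7 ± 0.146 in knockouts, against 46.6 ± 2.62 in controls (log2 -0.59, adjusted p = 3.75e-05), and Inpp5d, the lipid phosphatase SHIP1, to 210 ± 6.72 in knockouts, against 245 ± 12.3 in controls. The kinase Mapk3 rose to 516 ± 17.7 in knockouts, against 438 ± 29.3 in controls, and the SHIP2 gene Inppl1 to 53.1 ± 1.01 in knockouts, against 45.2 ± 3.36 in controls. The adaptor Tyrobp (585 ± 41.1 in knockouts and 672 ± 69.4 in controls) and the kinase Syk (562 ± 6.01 in knockouts and 624 ± 29.8 in controls) were not called. Csf1 itself had 23.2, 5.46 and 5.00 normalized reads in knockout libraries, 12.5, 2.98 and 3.28 in Cre controls, and 91.4, 15.5 and 13.8 in floxed controls. The first library was highest in each genotype. Limma called no difference against both controls (-0.43, adjusted p = 0.652). Nor did it call one against Cre controls (0.68, adjusted p = 0.546) or floxed controls (-1.53, adjusted p = 0.158), which differ in sign. Il34 was not among the measured genes.

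Of 15 measured transcription factors of Csf1r and macrophage genes, 3 rose and 2 fell (median -0.08). Egr2 fell to 51.8 ± 8.71 in knockouts, against 89.1 ± 8.83 in controls (log2 -0.78, adjusted p = 3.02e-04), and Irf8 to 102 ± 2.20 in knockouts, against 129 ± 5.47 in controls. Both encode factors of the mononuclear phagocyte lineage. Bhlhe40, a repressor that supports alveolar macrophage proliferation, rose to 473 ± 45.5 in knockouts, against 306 ± 28.2 in controls, and Runx1, a haematopoietic factor that binds Csf1r, to 338 ± 32.9 in knockouts, against 231 ± 19.5 in controls. Spi1, which encodes PU.1, a factor required for Csf1r expression, was at 388 ± 12.7 in knockouts and 422 ± 33.6 in controls and was not called, nor was Cebpa (396 ± 34.4 in knockouts and 400 ± 28.5 in controls).

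Among 12 measured TGF-beta ligand, latency and activation genes, 3 rose and 4 fell (median 0.04). Furin, the protease that cleaves the TGF-beta precursor, rose to 886 ± 36.4 in knockouts, against 447 ± 43.0 in controls (log2 0.99, adjusted p = 1.08e-05), and the integrin gene Itgb1 to 841 ± 44.2 in knockouts, against 589 ± 36 in controls. Nrros, which tethers latent TGF-beta on myeloid cells, fell to 118 ± 15.2 in knockouts, against 185 ± 7.48 in controls (log2 -0.65, adjusted p = 1.15e-04), and the integrin gene Itgb5 to 200 ± 8.24 in knockouts, against 274 ± 17.4 in controls. Tgfb2 had 3.00, 3.32 and 2.52 normalized reads in knockout libraries, 9.77, 4.87 and 7.74 in Cre controls, and 5.54, 5.89 and 8.90 in floxed controls. All knockout libraries were below all controls, at a low level throughout (log2 -1.01, SE 0.199, adjusted p = 0.00274). Tgfb3 was not among the measured genes. The integrin gene Itgav (73.1 ± 7.67 in knockouts and 65.0 ± 3.82 in controls) and Mmp9, a matrix protease (12.5 ± 12.1 in knockouts and 23.9 ± 37.5 in controls), were not called.

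Of 15 measured co-receptor and SMAD transducer genes, 3 rose and 3 fell (median -0.0096). Smad1 rose to 80.7 ± 7.48 in knockouts, against 42.3 ± 1.88 in controls (log2 0.91, adjusted p = 3.17e-06), and Acvrl1, a type I receptor, to 104 ± 0.697 in knockouts, against 69.0 ± 5.11 in controls. Zfyve9, the SARA anchor that presents SMAD2 and SMAD3 to the receptor, fell to 4.64 ± 0.786 in knockouts, against 12.1 ± 1.48 in controls (log2 -1.21, adjusted p = 4.62e-05), and Smad5 to 30.6 ± 1.74 in knockouts, against 43.5 ± 1.70 in controls. Smad1, Smad5 and Acvrl1 belong to the branch that carries mainly bone morphogenetic protein signals. The deubiquitinase gene Usp4 (120 ± 1.60 in knockouts and 113 ± 4.0 in controls) and the adaptor gene Tab2 (84.6 ± 2.62 in knockouts and 88.9 ± 3.34 in controls) were not called.

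Of 10 measured TGF-beta inhibitors, 5 rose and 1 fell (median 0.18); 2 fell without the first or second Cre control or the third floxed control. Smad6, an inhibitory SMAD that acts mainly on the bone morphogenetic protein branch, rose to 14.6 ± 2.72 in knockouts, against 1.3 ± 0.373 in controls (log2 2.76, adjusted p = 5.96e-07). The corepressor Ski rose to 459 ± 29.3 in knockouts, against 354 ± 21.9 in controls, and Fkbp1a, whose product FKBP12 binds the resting type I receptor, to 133 ± 2.20 in knockouts, against 101 ± 5.70 in controls. Ppm1a, a SMAD phosphatase, rose to 97.1 ± 4.67 in knockouts, against 78.7 ± 3.81 in controls. Skil, a relative of Ski (155 ± 16.2 in knockouts and 168 ± 9.26 in controls), and Smurf2, a ubiquitin ligase (69.4 ± 6.39 in knockouts and 66.6 ± 3.37 in controls), were not called.

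Of 10 measured TGF-beta target genes, 5 rose and 4 fell (median 0.22), so the list did not move in 1 direction; 2 fell without the second knockout library. Tgfbi, a matrix protein named for its induction by TGF-beta, fell to 306 ± 21.8 in knockouts, against 1069 ± 124 in controls (log2 -1.79, adjusted p = 3.46e-07). Id2, an inhibitor of helix-loop-helix factors, rose to 247 ± 25.6 in knockouts, against 116 ± 19.0 in controls, and the cell-cycle inhibitor gene Cdkn1a to 194 ± 22.6 in knockouts, against 134 ± 9.50 in controls. Id1 was not called (17.2 ± 2.73 in knockouts and 18.0 ± 3.68 in controls).

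**Figure D5:**
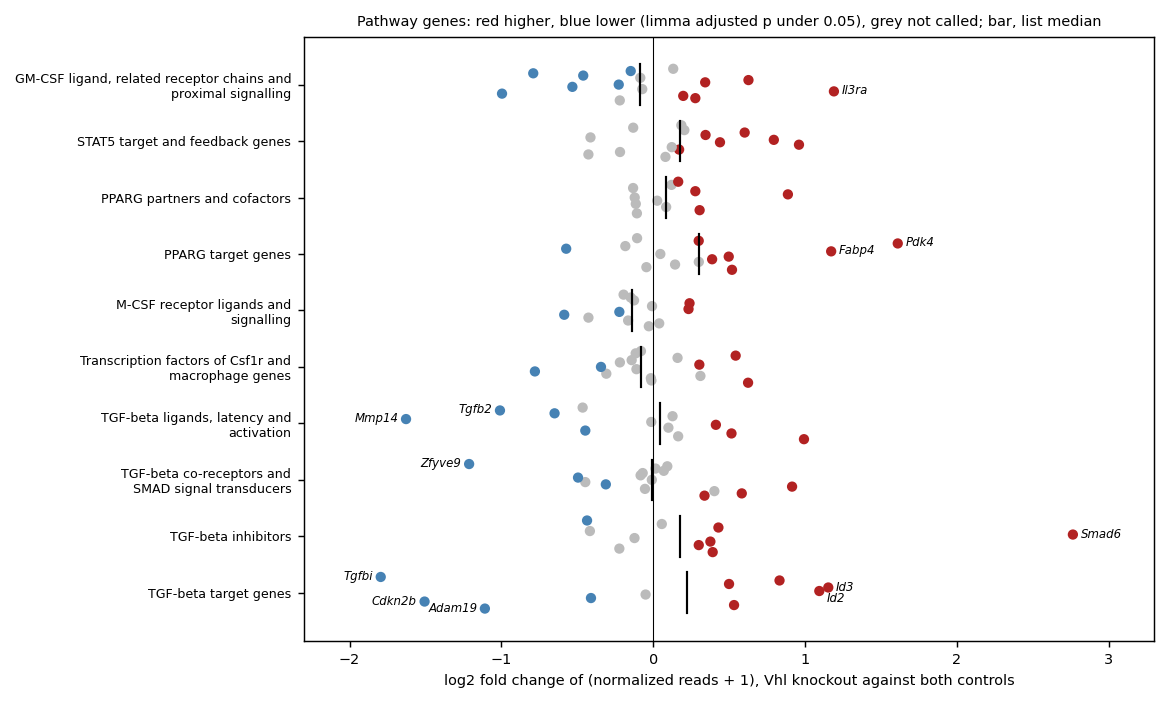
Log2 fold change of (normalized reads + 1), Vhl knockout against both controls, for each measured gene of the 10 lists (points, 1 row per list; vertical position within a row has no meaning), red where higher and blue where lower at an adjusted p under 0.05, grey otherwise, with the list median as a bar. Genes beyond 1 in either direction are named, and Smad6 (2.76) and Tgfbi (-1.79) lie farthest out on either side.

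The genes whose levels followed each member most closely over the 9 libraries were found by Pearson r of log2(value + 1) among the 9819 genes that averaged 5 normalized reads or more. Where knockouts and controls stand apart, r largely restates that gap, and all genes share the same libraries. Tgfbr1 was followed most closely by Csrp1 and Rac2 (r = 0.995 each), which averaged 29.8 and 57.0 normalized reads in knockouts and 68.7 and 191 in controls. Csf1r was followed by Pmvk and Adgre4 (r = 0.986 each), the last of which averaged 0.653 ± 0.0580 in knockouts and 11.3 ± 5.67 in controls. Pparg was followed by Ppm1a (r = 0.991), which is among the TGF-beta inhibitors above, and by Dnajb13 (r = 0.978). For Csf2rb these were Tmem184b (r = 0.971) and Atg7 (r = 0.970), for Csf2ra Trim25 (r = 0.976) and Dcaf6 (r = 0.969), and for Stat5b Klhl9 (r = 0.988) and Prr15 (r = 0.981). For Tgfb1 they were Ppp1r9b (r = 0.977) and Rnf166 (r = 0.968), and for Stat5a Mtg1 (r = 0.948) and Gm10052 (r = 0.911). Tgfbr2 had Manba (r = 0.915) and Ttc13 (r = 0.906), and Csf2rb2 had Agap1 (r = 0.893) and Trappc9 (r = 0.879), the lowest values among the members. Members were left out of this search.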

How the data were processed

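Poly(A) RNA of 9 pools, 3 per genotype, was sequenced as single reads of 61 bases, per the labels' protocols. The submitters' processing notes name RSEM 1.2.3, cutadapt 1.3, CASAVA 1.8.2 and GRCm38; annotation, strand setting and later steps are unknown here. The authors deposited a signal per gene and library, which proved to be whole reads times 1 factor per library: 100% of values came out whole within 0.01 read. Such scaling hides any shift shared by most genes. Each gene had at least 0.962 in at least 3 libraries, so rarer transcripts are not analysed here. For a gene at 0 reads the limit is 3 reads (0.120 to 0.170 normalized reads, counting error only). 0 columns were left out.

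The edgeR test planned for counts was replaced by limma 3.58.1 (R 4.3.3), planned for normalized values: log2(value + 1), which understates changes of low genes, 1 mean per genotype, intensity trend, no filter, two-sided tests, Benjamini-Hochberg adjustment over all 12003 genes. The code was tested on simulated data, which held far fewer changed genes and no deviation shared between libraries. That test does not show how sure the calls here are. P-values rest on the spread between pools; the labels do not give the sexes per pool. Alternatives were edgeR 4.0.16 and DESeq2 1.42.0 on the recovered reads, pseudocounts of 0.5 and 5, a mean of at least 5, no scaling factor, a replicate block, each library left out and paralogs summed. Leaving out the first library of each genotype was chosen after seeing the data.

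Symbols (11935 matched) and positions came from GENCODE M21, promoters from RefSeq. Members and lists were chosen with earlier results of these data known. Named genes are Vhl, all members, the listed ligands and, per list, up to 4 called genes with the smallest adjusted p and a mean of at least 5, and the 2 most abundant uncalled genes, and the 2 genes most like each member; some genes that this rule names are not reported here.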

Additional observations from a re-analysis of the deposited data

How the results depend on the processing

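Tgfbr1, Csf1r and Pparg kept direction and call in every alternative, against each control group and against both. Against both controls, 37 of the 40 called list genes picked by the naming rule kept theirs; Rxrb, Inppl1 and Mapk3 lost the call in 9, 3 and 1 alternatives. The remaining calls moved as follows, and the cause was not tested. The number of members called was 3 with paralogs summed, where Csf2rb (0.15, adjusted p = 0.123) and Stat5b (0.057) lost the call and the pair's values turned Csf2rb2 to 0.15 (0.13 against floxed controls, 0.18 against Cre controls) and Stat5a to 0.057 (0.048 against floxed controls); it was 3 to 5 when single libraries were left out. Stat5b also lost the call among genes with a mean of at least 5 (0.12, adjusted p = 0.0502), without a scaling factor (0.068), with the replicate block (0.12, adjusted p = 0.0671) and without the first library of each genotype (0.14). That last setting called Csf2ra (0.20) and not Csf2rb (0.23). Among list genes not called, a call was gained by Ywhaz (pseudocount 5, DESeq2), Tyrobp (no scaling factor, without floxed control 3), Syk (no scaling factor, DESeq2, without Cre control 1 or floxed control 3), Itgav (replicate block, without knockout 1, without the first libraries) and Csf1 (replicate block, without the first libraries), with adjusted p from 0.0058 to 0.0499. The mean of Csf1 in knockouts lay between those of Cre and floxed controls, so its calls against both are not falls against each. Without a scaling factor Tgfb1 was called (-0.17) and Stat5a turned to -0.019 against Cre controls.

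With single libraries left out, the log2 change against both controls ran from 0.14 to 0.20 for Csf2ra, 0.19 to 0.25 for Csf2rb, 0.11 to 0.13 for Stat5b, -0.042 to 0.0076 for Stat5a, -0.078 to 0.047 for Cebpa, -1.08 to 0.00037 for Csf1, -0.16 to 0.046 for Id1, -0.57 to 0.73 for Mmp9 and -0.0053 to 0.13 for Smurf2. Against Cre controls it ran from -0.13 to 0.016 for Csf2rb2 and -0.034 to 0.047 for Stat5a, and against floxed controls from -0.16 to 0.0099 for Csf2rb2 and -0.070 to 0.0050 for Tgfbr2. Between the controls it ran from -0.16 to 0.0023 for Csf1r, -0.063 to 0.053 for Csf2ra, -0.10 to 0.069 for Csf2rb2, -0.0055 to 0.035 for Stat5b and -0.074 to 0.0085 for Tgfb1. Between the controls, signs also turned without a scaling factor (Csf2ra -0.030, Tgfbr2 -0.00032, Stat5b -0.028), with paralogs summed (Stat5b -0.017) and without the first libraries (Csf2ra -0.11, Csf1r 0.055, Tgfbr2 -0.012). Cebpa was 0.017 without the first libraries, and Mmp9 was -0.16 with a pseudocount of 5 and -0.34 with edgeR, also after its count filter, which removed 0 genes.

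Genes lower among the STAT5 targets numbered 2 without a scaling factor or the first libraries, 1 with DESeq2 or the replicate block, and 0 to 2 with single libraries left out. M-CSF signalling genes higher numbered 1 without a scaling factor or the first libraries and 0 to 2 with single libraries left out; genes lower numbered 5 without a scaling factor, 4 with DESeq2 and 2 to 4. TGF-beta inhibitors lower numbered 2 without a scaling factor or with the replicate block and 1 to 2 with single libraries left out, PPARG targets lower 0 to 1, and TGF-beta targets lower 2 to 4. Between the controls, 20 of all genes were called, 74 with DESeq2, 11 from those 2 groups alone, 71 with the replicate block, 147 without the first libraries, and 13 to 31 with single libraries left out.

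Same-numbered libraries deviated together in 5 of 9 pairs (r above 0.1, range -0.082 to 0.58), and libraries of different number in 6 of 18. The first libraries of the genotypes deviated together in every pair (r = 0.33, 0.58 and 0.20). Every pair of a first library with a library of another number had a negative r (-0.47 to -0.040). Each deviation was taken from the mean of its genotype, so deviations within a genotype cancel out. A positive r between first libraries thus forces some negative pairs with the other libraries, and these are no separate result. Same-numbered pairs of the other libraries ran from -0.082 to 0.23. The numbers were not taken to pair the pools, so the main model held no term for the deviation that the first libraries shared. With the replicate block 4898 genes were called against both controls, against 4781 without it. Rare transcripts are limited by the filter of the deposited table.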
